A study of Mus musculus with 384 samples.

Results

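Livers of male (M) and female (F) Diversity Outbred mice that ate a high fat diet were compared, gene by gene. The comparison took every high fat mouse of the study: 46 M and 48 F mice, 94 of the 192 mice in all, with the sex read from the label of each mouse. All mice were wild type animals of the J:DO stock, an outbred stock bred from several inbred founder strains, so each mouse carried its own mix of founder alleles. They were 26 weeks old at collection and had been fed from weaning a high fat diet with 22% fat by weight. Livers of 48 M and 50 F mice of the same stock and age on chow with 6% fat by weight served to ask where the sex difference depended on the diet. Each mouse also had an outbreeding generation label, G11L1 (25 M and 24 F high fat mice) or G11L2 (21 M and 24 F), which was a covariate in every fit. Whole liver was sampled, so in all that follows fewer cells of a type and less RNA per cell cannot be told apart.

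Sex differences in rodent liver are set largely by growth hormone. The pituitary of males releases it in pulses with long gaps and that of females more evenly, and these patterns drive different on and off rhythms of the transcription factor STAT5B in hepatocytes. Male-biased and female-biased cytochromes P450, sulfotransferases, steroid-metabolizing enzymes, transporters and major urinary proteins are its best known targets, and androgens and oestrogens act mainly through the pituitary. The question of the comparison was which liver genes carry that difference under a fat-rich diet.

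Each value was a deposited read signal of a gene in a mouse, scaled to the upper quartile of that mouse, and had no further unit. Below, 3 values given for a group are its lowest, median and highest mouse. Differences are M minus F on the scale log2(signal + 0.0610), given ± SE, which understates the difference of genes with low signal. Estimated depth had a lowest, median and highest value of 9.79, 13.8 and 17.9 megareads in M livers and 9.80, 13.9 and 16.7 megareads in F livers. Xist, the RNA of the inactive X chromosome, lay at 0.33 to 1.44 in M and 88.2 to 293 in F livers, so no high fat mouse went against its label. All 9 hepatocyte defining genes examined were above 0 in every mouse. Summed pancreas markers stood at 1.03, 6.33 and 745 in M and 0.363, 1.52 and 198 in F livers, and exceeded 10 times the median in 2 M and 2 F mice. Of 13 such markers tested, 1 differed between the sexes, Cela1, given below. Its median was most of the median of the sum in each sex. Major urinary protein genes took 1.26%, 11.7% and 22.1% of the summed signal in M livers and 0.0965%, 0.924% and 8.77% in F livers. Of the 5 mice least like the others, 4 were M and 1 was F.

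Of 14107 autosomal genes tested, 6778 (48.0%) differed between M and F livers at an adjusted p under 0.05 (limma with Benjamini-Hochberg adjustment over all genes tested), and such a gene is called below. M livers were higher in 4318 (30.6%) and lower in 2460 (17.4%). Small differences depended on the scaling: 63.7% of the calls were higher in M with the deposited values, 49.2% under median-of-ratios factors and 52.3% under quantile normalization. These rescalings moved the median difference of all genes by -0.05 and -0.04 from a deposited median of 0.04. Differences of at least 2-fold were called in 2.97% of the genes, with 229 higher in M (1.62%) and 190 lower (1.35%), and their split stayed near even under the 3 scalings, at 54.7%, 50.7% and 52.0% higher. Of these genes, 92.1% were protein coding.

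Of 3 marker genes of the comparison, Mup20 and Cyp2d9 lay on one side and Cyp3a44 on the other. Mup20, which encodes the male urinary pheromone darcin (chromosome 4, 62050234 to 62054158, GRCm38), stood at 16.4, 417.1 and 3688 in M livers and at 1.22, 3.39 and 46.9 in F livers. Cyp2d9, a steroid hydroxylase gene (chromosome 15, 82433437 to 82456845), stood at 90.4, 372 and 690.5 in M livers and at 2.55, 12.7 and 147 in F livers. Cyp3a44, a cytochrome P450 gene of subfamily 3A, whose enzymes oxidize drugs and steroids (chromosome 5, 145773983 to 145805874), stood at 0.108, 0.452 and 1.90 in M livers and at 1.51, 36.0 and 229 in F livers. In each of the 3, at least 1 mouse of either sex lay within the range of the other. Mup20 was 81.9-fold higher in M (6.36 ± 0.30, adjusted p = 1.05e-34), Cyp2d9 was 25.0-fold higher (4.64 ± 0.23) and Cyp3a44 was 54.7-fold lower (-5.77 ± 0.28).

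Genes of fatty acid hydroxylation, pheromone carriage and steroid metabolism made up most of the 12 largest differences with M higher. Cyp4a12a, the arachidonic acid hydroxylase of male mice (ENSMUSG00000066071, chromosome 4, 115299046 to 115332815), stood at 29.3, 181 and 303 in M livers, against 0.248, 0.624 and 36.8 in F livers. M livers were high throughout, and only the highest F liver reached their range. The difference was 212-fold (7.73 ± 0.20, adjusted p = 7.22e-55). Its neighbour Cyp4a12b stood at 0.334, 34.8 and 117 in M and 0, 0.115 and 9.69 in F livers (6.23 ± 0.39). Of the 100-base words in these 2 genes' transcripts, 35.8% and 36.2% also occur in other genes, so reads may have been split between such copies.

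Major urinary proteins bind and release pheromones in urine. Mup21 stood at 1.10, 83.7 and 313 in M livers and 0.169, 0.454 and 2.95 in F livers (6.56 ± 0.31). For Mup7 the values were 172, 7725 and 17828 in M and 19.6, 90.5 and 3866 in F livers (5.56 ± 0.29). Mup1 had 16.0, 999 and 4415 in M and 1.15, 17.6 and 775 in F livers (5.66 ± 0.34). In all of these the medians lay far apart, while at least 1 mouse of each sex lay within the range of the other. Mup12 (4.91 ± 0.42) and Mup16 (4.80 ± 0.37) were higher in M as well. Mup16 shared 82.4% of its words with other genes, Mup12 77.5%, Mup7 76.1%, Mup1 55.7%, Mup20 38.8% and Mup21 4.50%, so single values within this family are uncertain.

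Hsd3b5, a ketosteroid reductase of the male liver, stood at 0.829, 43.4 and 156 in M livers and 0.0565, 0.193 and 20.8 in F livers (6.34 ± 0.35). Selenbp2, a selenium-binding protein gene, had 2.01, 134 and 838 in M and 0.395, 1.71 and 28.3 in F livers (5.13 ± 0.37). Slc22a28, an organic anion transporter gene, had 0.0541, 4.39 and 20.5 in M and 0, 0.0585 and 2.80 in F livers (4.99 ± 0.25). All 3 had an M median far above the F median, and in Slc22a28 the typical F liver lay at the pseudocount. Moxd1, a monooxygenase-like gene, was the most uneven of the 12: M livers ran over 0, 6.62 and 200.3, and F livers stayed at 0, 0.0454 and 0.242 (5.01 ± 0.55). Its log2 SD was 3.78 in M and 0.54 in F livers. Among called protein-coding genes in no list or family, the largest were Scara5, a scavenger receptor for ferritin (4.55 ± 0.24), Omd, the matrix proteoglycan osteomodulin (4.23 ± 0.14), the acetyltransferase-like Nat8f5 (3.71 ± 0.18) and Nox4, an NADPH oxidase (3.21 ± 0.19).

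**Figure D1:**
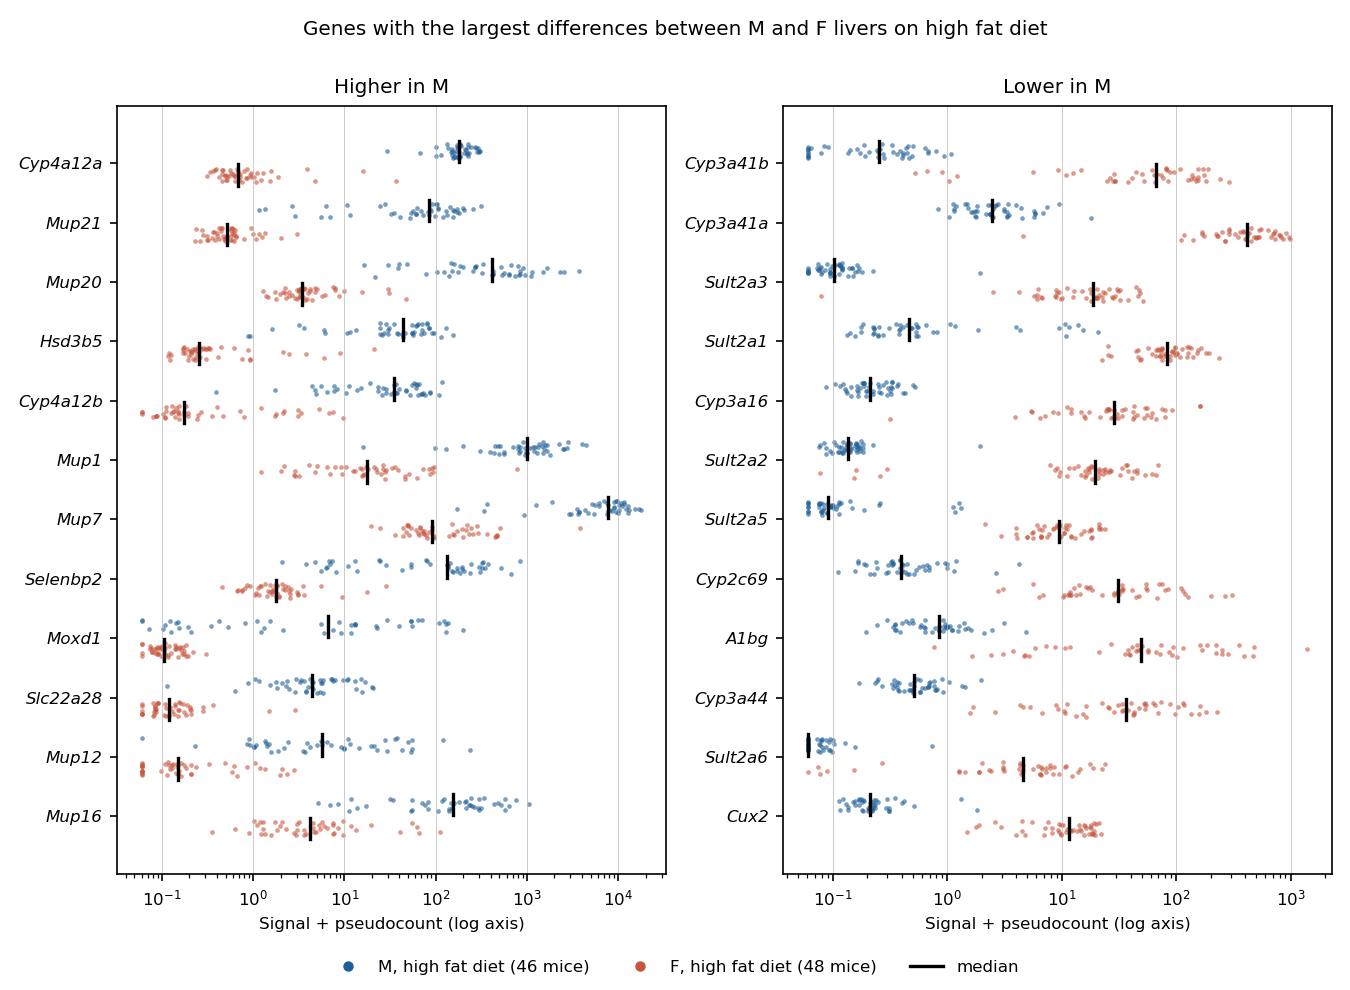
Signal per mouse plus the pseudocount (log axis) for the 12 genes with the largest difference higher in M (left) and lower in M (right), with 46 M mice in blue above 48 F mice in red and black bars at the medians. The 2 sexes form separate clouds for most genes, as for Cyp4a12a with medians of 181 in M and 0.624 in F livers, with stray points of either sex inside the other cloud.

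A cluster of 4 Cyp3a genes on chromosome 5 (145436309 to 145805874) was lower in M livers. Cyp3a41a (145694049 to 145720136) stood at 0.762, 2.42 and 17.8 in M livers and 4.51, 418.1 and 997 in F livers. Cyp3a41b had 0, 0.193 and 1.03 in M and 0.459, 66.1 and 288 in F livers. Cyp3a16 (145436309 to 145469723) had 0.0267, 0.149 and 0.460 in M and 0.254, 28.8 and 163 in F livers. F livers carried nearly all of the signal of these genes, and in each at least 1 F liver lay within the M range. Cyp3a41a was 139-fold lower in M (-7.12 ± 0.22, adjusted p = 9.58e-49), Cyp3a41b 186-fold lower (-7.54 ± 0.39) and Cyp3a16 was at -6.85 ± 0.24. Cyp3a41a and Cyp3a41b share 90.8% and 88.2% of their words with other genes, so their split is uncertain, while Cyp3a16 shares 0.123% and Cyp3a44 5.37%. Cyp3a11, the main constitutive and xenobiotic-induced 3A enzyme gene of mouse liver, lies beside them and was not called on high fat diet (-0.17 ± 0.16, adjusted p = 0.403).

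The start regions of these genes are printed because the genes are close copies that differ in their sex difference. The sequences are 250 bases before to 50 bases after the start, from RefSeq on GRCm38.p6, all on the minus strand of chromosome 5 at chr5:145720087-145720386 (Cyp3a41a), chr5:145469674-145469973 (Cyp3a16), chr5:145805825-145806124 (Cyp3a44) and chr5:145879805-145880104 (Cyp3a11). Capitals mark matches to CAAAGTCCA, a sequence bound by the hepatocyte factor HNF4A, and to ATTGAT or its reverse complement ATCAAT, the core bound by HNF6 (Onecut1).
Cyp3a41a: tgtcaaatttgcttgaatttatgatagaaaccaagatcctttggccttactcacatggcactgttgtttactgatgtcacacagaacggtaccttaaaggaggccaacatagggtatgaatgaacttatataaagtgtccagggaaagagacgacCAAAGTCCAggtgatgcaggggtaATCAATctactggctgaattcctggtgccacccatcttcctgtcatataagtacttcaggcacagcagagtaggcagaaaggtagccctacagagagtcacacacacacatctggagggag
Cyp3a16: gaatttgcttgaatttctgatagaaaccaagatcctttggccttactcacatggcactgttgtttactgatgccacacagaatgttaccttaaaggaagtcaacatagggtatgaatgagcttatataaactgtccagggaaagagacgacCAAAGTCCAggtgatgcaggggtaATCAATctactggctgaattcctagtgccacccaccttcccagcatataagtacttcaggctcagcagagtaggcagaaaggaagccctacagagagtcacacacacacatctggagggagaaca
Cyp3a44: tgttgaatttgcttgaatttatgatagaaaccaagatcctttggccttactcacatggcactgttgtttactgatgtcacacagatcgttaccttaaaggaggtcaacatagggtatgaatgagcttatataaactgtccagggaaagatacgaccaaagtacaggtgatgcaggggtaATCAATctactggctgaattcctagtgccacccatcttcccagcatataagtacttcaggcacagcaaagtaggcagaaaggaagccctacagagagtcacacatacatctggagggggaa
Cyp3a11: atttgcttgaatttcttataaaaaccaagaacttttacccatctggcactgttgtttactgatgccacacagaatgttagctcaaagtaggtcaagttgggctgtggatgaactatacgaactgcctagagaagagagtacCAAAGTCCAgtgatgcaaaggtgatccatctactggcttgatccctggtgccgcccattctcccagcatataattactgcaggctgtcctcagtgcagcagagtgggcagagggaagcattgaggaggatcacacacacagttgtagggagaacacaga

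In Cyp3a41a the HNF4A letters began at -95 and ATCAAT at -71 from the start, and in Cyp3a16 they began at -99 and -75. Cyp3a41b held both at the positions of Cyp3a41a, and these 2 windows were 97.3% identical without gaps. Cyp3a44 was 92.3% identical to Cyp3a41a and held ATCAAT at -71 but not the HNF4A letters. Cyp3a11 held the HNF4A letters at -109 but not ATCAAT. A match is a description of the letters in this window and does not show binding.

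Sulfotransferases of the Sult2a group sulfate bile acids and hydroxysteroids. A cluster of 7 genes on chromosome 7 (13623967 to 14254870), 6 of them of this group and the last the pseudogene Rpap3-ps2, was at least 2-fold lower in M livers. Sult2a1 stood at 0.0707, 0.40 and 20.9 in M livers and 22.5, 83.5 and 237 in F livers. For Sult2a5 (13623967 to 13670807) the values were 0, 0.0294 and 1.25 in M and 2.05, 9.47 and 23.7 in F livers. In these 2 genes no M liver reached the lowest F liver. Sult2a3 had 0, 0.0420 and 1.89 in M and 0.0181, 18.8 and 51.2 in F livers, and Sult2a2 had 0.0151, 0.0754 and 1.87 in M and 0.0159, 19.5 and 69.2 in F livers, so there the ranges met at the bottom. Their differences were -6.86 ± 0.32 for Sult2a1, -6.33 ± 0.20 for Sult2a5, -7.06 ± 0.25 for Sult2a3 and -6.57 ± 0.35 for Sult2a2, and Sult2a6 followed at -5.47 ± 0.33. Shared words were 34.6% for Sult2a2, 16.6% for Sult2a5, 11.4% for Sult2a1 and 0% for Sult2a3.

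The start regions of 2 members are shown for a shared match to the HNF1 motif, a form of the sequence bound by the hepatocyte factor HNF1, which is in capitals. They lie at chr7:14122999-14123298 on the minus strand (Sult2a3) and chr7:13623717-13624016 on the plus strand (Sult2a5) of GRCm38.p6, from RefSeq.
Sult2a3: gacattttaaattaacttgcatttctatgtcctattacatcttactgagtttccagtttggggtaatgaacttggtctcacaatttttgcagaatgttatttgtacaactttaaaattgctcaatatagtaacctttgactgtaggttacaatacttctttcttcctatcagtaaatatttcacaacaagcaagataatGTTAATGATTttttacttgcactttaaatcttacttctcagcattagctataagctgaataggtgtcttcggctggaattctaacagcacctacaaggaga
Sult2a5: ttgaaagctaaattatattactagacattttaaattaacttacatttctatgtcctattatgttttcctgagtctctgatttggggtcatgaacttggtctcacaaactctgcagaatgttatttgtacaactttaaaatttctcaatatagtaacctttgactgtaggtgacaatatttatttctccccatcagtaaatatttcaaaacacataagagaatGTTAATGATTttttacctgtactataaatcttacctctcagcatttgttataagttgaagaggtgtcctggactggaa

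The matched letters, GTTAATGATT in both, began at -51 in Sult2a3 and at -28 in Sult2a5. The HNF1 motif, searched on both strands like the others, occurred in 4.41% of the start regions of genes at least 2-fold lower in M (136 of 190 genes had one), in 0.629% of those at least 2-fold higher (159 of 229) and in 0.470% of all 27025 start regions. CAAAGTCCA occurred in 3.68%, 1.89% and 0.555% of the same 3 sets, and ATTGAT in 14.7%, 15.1% and 8.63%. TTCNNNGAA, the STAT5 core, occurred in 9.56%, 9.43% and 9.55%, and ATCGAT, a CUX core, in 0.735%, 1.89% and 1.02%. Matches of different motifs can overlap at their ends. Neighbouring copies of a gene share their matches, so the counts are not of independent genes.

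The other genes among the 12 lowest in M were a further P450, a plasma protein and a repressor. Cyp2c69 stood at 0.0509, 0.336 and 4.19 in M livers and 2.72, 30.8 and 307 in F livers (-6.02 ± 0.26), and shares 35.4% of its words with other genes. A1bg, a plasma glycoprotein gene, had 0.133, 0.785 and 4.79 in M and 0.711, 49.1 and 1391 in F livers (-5.79 ± 0.38). Cux2, a homeobox factor that represses male-biased genes in female liver (chromosome 5, 121856366 to 122050102), had 0.0526, 0.149 and 1.76 in M and 1.41, 11.5 and 22.2 in F livers (-5.44 ± 0.18). Outside the lists and families the lowest were Slc39a5, a zinc importer (-3.98 ± 0.25), Eci3, a peroxisomal enoyl-CoA isomerase (-3.82 ± 0.32), the aldehyde dehydrogenase gene Aldh3b3 (-3.40 ± 0.19) and Nt5e, the ecto-5'-nucleotidase CD73 (-3.28 ± 0.21). All 24 genes of largest difference had an adjusted p of 3.34e-13 or smaller.

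Complete separation was rare. The ranges of M and F livers did not overlap in 4 of 14107 genes (0.0284%): Sult2a5 and Sult2a1, lower in M, and Omd and Scara5, higher in M. Omd had 0.299, 2.34 and 4.45 in M livers and 0, 0.0462 and 0.290 in F livers. Scara5 had 0.196, 2.58 and 13.6 in M and 0, 0.0310 and 0.0882 in F livers. To see which mice blurred the other genes, each mouse was counted for the 24 genes of largest difference as having crossed when its value lay past the midpoint of the 2 log2 medians. No gene was crossed in 20 of 46 M and 17 of 48 F mice. Mouse M365 crossed in 12 of 24 genes and mouse F408 in 15 of 24, each on both sides, while every other mouse crossed in 8 or fewer. The alternative without these 2 mice, chosen after their values were seen, left 11 genes with separate ranges, where Cyp4a12a, Abcg2 and Cyp2d9 joined on the M side and Tox, Cyp3a16, Cyp3a41a and Sult2a3 on the F side. Genes differed in how many mice crossed: 16 M mice for Moxd1, 13 M mice for Selenbp2 and 9 F mice for A1bg, against 0 M and 2 F mice for Cyp4a12a.

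Gene families gave the broader picture, and most xenobiotic and steroid families held members on both sides. Of 20 tested major urinary protein genes, 19 were higher in M, each at least 2-fold, with a median difference of 3.53, beside a median of 0.0438 and 30.6% called higher over all genes. Sulfotransferases were lower in 12 of 16 and higher in 3, Sult5a1 (2.87), Sult2a8 (0.99) and Sult1b1 (0.24), with 2 higher under quantile normalization. The Cyp2c family of lipid epoxygenases and drug oxidases was called in all 15 members, 9 higher and 6 lower, with Cyp2c67 at 1.79, Cyp2c37 at -1.82 and Cyp2c40 at -4.89. Cyp2c40 shares 34.4% of its words with other genes, Cyp2c67 23.7% and Cyp2c37 4.70%. In the Cyp3a family 5 of 8 were lower and none was higher. Cyp4a genes were higher in 2 of 6 and lower in 3, Cyp2d genes higher in 4 of 8 and lower in 1, Cyp2a genes lower in 3 of 4 and Cyp2b genes lower in 2 of 3. Cyp2b13, a steroid hydroxylase, had 0.0526, 0.414 and 37.8 in M and 2.56, 37.4 and 144 in F livers (-5.35 ± 0.35), whereas Cyp2b10, the classic target of the receptor CAR, was not called (0.45 ± 0.28, adjusted p = 0.179).

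Flavin monooxygenases, which oxidize amines and sulfides of drugs and diet, were lower in M in 4 of 5, with Fmo2 at -2.30 and Fmo4 at -1.33, and higher for Fmo5 (0.79). Glucuronosyltransferases were higher in 8 of 17 and lower in 4, with the bilirubin enzyme gene Ugt1a1 at -1.25 and Ugt2b1 at 1.46, where Ugt1a1 shares 57.2% of its words with the other transcripts of its locus. Calls of carboxylesterases were near the 30.6% higher and 17.4% lower of all genes. They were higher in 4 of 15 and lower in 3, or 4 and 4 under both rescalings. All 4 higher ones were at least 2-fold higher (Ces3a at 1.87), beside 1.62% of all genes. Glutathione S-transferases were higher in 3 of 21 and lower in 7. Gstp1, the pi-class enzyme, went against that balance with 35.4, 183 and 706 in M and 17.8, 29.9 and 68.5 in F livers (2.51 ± 0.16). Gstp1 shares 25.1% of its words with other genes. Hydroxysteroid dehydrogenases and aldo-keto reductases were higher in 10 of 26 and lower in 5, among them Hsd3b2 (1.71) and the testosterone-reducing Srd5a1 (1.40). Organic ion transporters of the SLCO and SLC22 families were higher in 7 of 23 and lower in 11, with Slc22a28 at 4.99 beside Slc22a27 at -4.06 and Slc22a26 at -4.75. Slc22a28 shares 37.0% of its words with other genes, Slc22a27 7.31% and Slc22a26 0.558%. Serpina protease inhibitors were higher in 11 of 19 and lower in 4, from Serpina1e, an alpha-1-antitrypsin gene (4.59), to the corticosteroid-binding globulin Serpina6 (-1.56). Acyl-CoA thioesterases, which release free fatty acids from their CoA esters, were lower in 8 of 10 and higher in none.

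**Figure D2:**
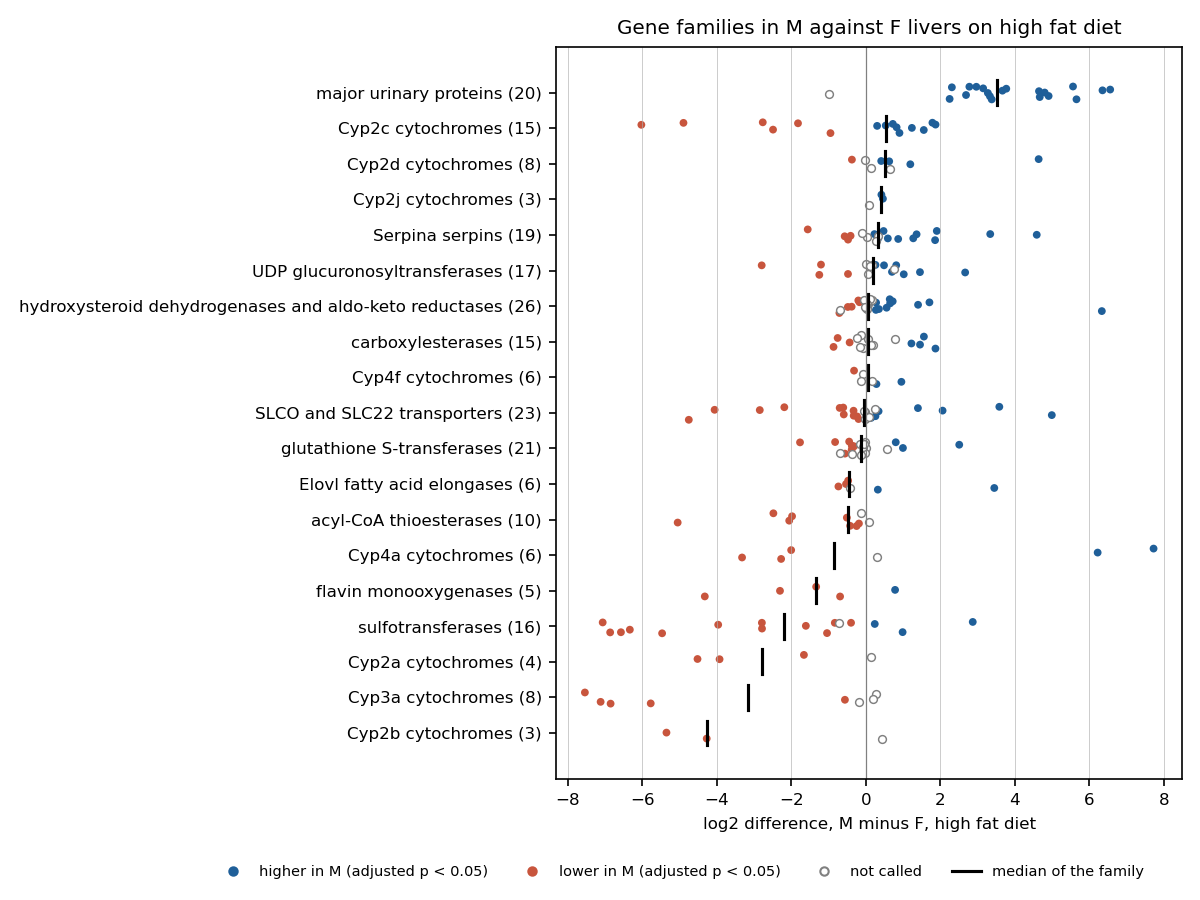
Log2 difference M minus F on high fat diet of each tested member of 19 gene families (number tested in brackets), blue where called higher in M, red where called lower, open where not called, with a black bar at the family median. Major urinary proteins sit far to the right with a median of 3.53, Cyp2b, Cyp3a and sulfotransferase genes to the left, and Cyp2c and Cyp4a members lie on both sides.

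Some of the genes of at least 2-fold difference lay close to each other. With gaps of up to 200000 bp, 120 of these genes fell into 26 clusters of at least 3, while 247 had no such neighbour. A single direction held in 15 clusters, among them 9 major urinary protein genes on chromosome 4 (59964294 to 60741326, all higher in M), 7 genes of the Serpina locus on chromosome 12 (103894926 to 104106137, all higher, with the predicted B430119L08Rik and the pseudogene Serpina4-ps1 among them) and 5 genes of the Acot locus on chromosome 12 (83987861 to 84060402, all lower), of which 4 are Acot genes. Other clusters were mixed: the Cyp2c cluster of chromosome 19 (39007019 to 40073827) held 5 higher and 5 lower genes, and the Cyp4a cluster of chromosome 4 (115299046 to 115579015) held 3 and 3. A second stretch of chromosome 4 (61224307 to 62150863) held 13 genes higher and 1 lower.

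Lists of genes known as sex-biased in mouse liver were also counted. They were written with earlier results of these data known, so their counts describe the lists and are no independent support. All 27 male-biased genes were higher in M, 25 of them at least 2-fold, with a median of 3.63. Of 31 female-biased genes, 29 were lower in M, each at least 2-fold, with a median of -4.32, and the exceptions were Sult1e1 and Cyp2b10. Over all genes, 30.6% were higher and 17.4% lower. The counts of calls, 27 and 29, were the same under the 2 rescalings.

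The prolactin, leptin and oestrogen receptor genes were lower in M livers. Prlr stood at 6.59, 21.4 and 54.0 in M and 36.6, 72.8 and 309.8 in F livers (-1.83 ± 0.13), Lepr was at -1.75 ± 0.17 and Esr1 at -1.14 ± 0.12. Egfr, the epidermal growth factor receptor, was on the other side with 8.96, 99.3 and 279 in M and 2.69, 8.75 and 49.0 in F livers (3.09 ± 0.23). In all, 4 of 23 genes of growth hormone, prolactin and sex hormone signalling were higher in M and 10 lower, or 3 and 12 under median-of-ratios factors. Of genes chosen after their values were seen, the growth hormone receptor Ghr was at 0.36, the STAT5 feedback inhibitors Socs2 and Cish at -0.96 and -0.71, and Stat5b (0.02) and Igf1 (0.06) were not called.

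Among 23 transcription factors tied to sex-biased liver expression, 8 were higher in M and 7 lower, or 7 and 9 under quantile normalization. Cux2 was lowest, and Tox, an HMG-box factor, had 0, 0.363 and 1.34 in M livers and 0.888, 2.11 and 3.12 in F livers (-2.43 ± 0.17). Trim24, a nuclear receptor coregulator, had 3.33, 5.71 and 11.4 in M and 10.6, 17.2 and 28.5 in F livers (-1.52 ± 0.08), with little overlap. Nr1i3, the xenobiotic receptor CAR, had 15.7, 52.3 and 119 in M and 39.9, 107 and 205 in F livers (-0.94 ± 0.13). Bcl6, a repressor of female-biased genes, had 1.40, 5.36 and 21.2 in M and 1.20, 2.49 and 9.90 in F livers (1.11 ± 0.19).

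Genes of fatty acid use were lower in M livers on high fat diet. Of 30 tested genes of fatty acid oxidation and ketogenesis, many of them targets of the lipid-sensing receptor PPAR alpha, 24 were lower in M, 11 at least 2-fold, and none was higher; both rescalings gave 27 lower and 0 higher. Acot3 stood at 0.125, 1.40 and 17.6 in M and 10.3, 54.0 and 125 in F livers (-5.05 ± 0.29). Cyp4a14, an omega-hydroxylase, had 0.421, 27.3 and 301 in M and 76.0, 203 and 489 in F livers (-3.32 ± 0.34). For Cyp4a14 the highest M livers reached the F level, while for Acot3 the highest M liver stayed below the F median. Cyp4a10 (-2.27 ± 0.22), the pantetheinase Vnn1 (-2.27 ± 0.21), Acot1 (-2.48 ± 0.19), Acot4 (-2.05 ± 0.14) and Acot2 (-1.98 ± 0.16) lay on the same side. Crat, which moves acetyl groups onto carnitine, had 2.60, 9.11 and 24.3 in M and 13.9, 26.1 and 39.0 in F livers (-1.42 ± 0.11).

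Synthesis genes leaned the same way with smaller differences. Fatty acid and triglyceride synthesis genes were lower in M in 12 of 22 and higher in 1, with a median of -0.44. Fads1, a desaturase of polyunsaturated fatty acids, had 39.4, 110.2 and 226 in M and 63.7, 226 and 437 in F livers (-1.05 ± 0.11). Pnpla3, a lipid droplet hydrolase tied to fatty liver in humans, had 0.113, 1.11 and 113 in M and 0.684, 12.1 and 69.7 in F livers (-2.79 ± 0.38), so the medians lay apart but 1 M liver was the highest of all. Acacb was at -1.10 ± 0.19. Cholesterol synthesis and uptake genes included 12 of 22 that were lower and none that was higher, with a median of -0.33, Fdft1 at -0.64, the sterol regulator Srebf2 at -0.28 and Sqle at -1.01.

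Lipid droplet and fatty acid uptake genes were higher in M in 5 of 24 and lower in 9, or 3 and 13 under median-of-ratios factors and 3 and 14 under quantile normalization. Cd36, a fatty acid translocase, had 4.57, 31.8 and 89.1 in M and 45.8, 69.4 and 91.1 in F livers (-1.10 ± 0.14), an uneven spread in M beside a narrow one in F. Cidea, which fuses lipid droplets, went the other way (1.35 ± 0.34). Lipoprotein genes were higher in 4 of 24 and lower in 8, with 14 and 17 lower after the rescalings, and included Vldlr (-2.26 ± 0.24), Pltp (-1.37 ± 0.16) and Tm6sf2 (-1.12 ± 0.09). Bile acid synthesis and transport genes were higher in 14 of 25 and lower in 7. The oxysterol hydroxylase Cyp7b1 had 6.6, 71.0 and 286 in M and 2.01, 6.28 and 96.6 in F livers (2.96 ± 0.28), and the exporter Abcc4 had 0.151, 0.622 and 2.94 in M and 0.743, 4.20 and 9.59 in F livers (-2.41 ± 0.15). Gluconeogenesis and insulin response genes were higher in 2 of 20 and lower in 6, with the glycogen-targeting subunit Ppp1r3g lowest (-2.47 ± 0.25).

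Genes of protein folding in the endoplasmic reticulum were higher in M livers. Of 22 genes of the unfolded protein and integrated stress responses, 19 were higher in M and none lower, with a median of 0.56, and the rescalings gave 18 and 19 higher. Manf, a secreted stress-induced protein, had 10.4, 16.6 and 51.4 in M and 2.87, 7.30 and 13.3 in F livers (1.23 ± 0.09). Hyou1, a chaperone, had 18.9, 39.2 and 153 in M and 11.1, 17.8 and 36.6 in F livers (1.20 ± 0.10). The ranges met only at their edges in Manf and more widely in Hyou1. Sdf2l1 (1.54 ± 0.12) and Dnajb11 (0.76 ± 0.06), both of the same chaperone machinery, followed.

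Complement, the plasma protein cascade that lyses microbes, was higher in M in 16 of 25 genes and lower in 4, with 5 genes at least 2-fold higher. Members of the membrane attack complex were among the largest differences. C6 had 17.0, 81.9 and 691 in M and 2.09, 5.93 and 22.0 in F livers (3.63 ± 0.21), C8a had 64.0, 201 and 412.96 in M and 9.43, 27.5 and 132 in F livers (2.71 ± 0.14), and C9 had 30.2, 138 and 622 in M and 2.38, 20.1 and 130.2 in F livers (2.83 ± 0.20). C8b stood at 2.95 and C4a at 2.92. Acute phase and metal protein genes were higher in 11 of 24 and lower in 3, but 5 and 5 under median-of-ratios factors and 3 and 8 under quantile normalization, so their balance depends on the scaling. The metallothionein Mt1 was lower in M, with 0.861, 5.24 and 107 in M and 2.73, 35.0 and 136 in F livers (-2.27 ± 0.30), as were Mt2 (-2.23) and the hepcidin paralogue Hamp2 (-1.83 ± 0.34).

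Other lists had members on both sides, and their counts are to be read against 30.6% higher and 17.4% lower over all genes, since a share near these is no result about a list. Targets of the antioxidant factor NRF2 were higher in 7 of 18 and lower in 5. Core clock genes were near the shares over all genes, with 5 of 17 higher and 2 lower, and included Bhlhe41 at 1.27 ± 0.19. Cell cycle genes were higher in 5 of 20 and lower in 1, Ccnd1 (-1.46 ± 0.18). Genes of hepatocytes near the central vein were higher in 2 of 14 and lower in 3, and those of periportal hepatocytes were higher in 3 of 15 and lower in 3, or 2 and 5 under median-of-ratios factors. Hepatocyte defining genes were higher in 3 of 9 and lower in 1, or 2 and 6 under quantile normalization. Albumin stood at 6440.1, 12884 and 29446 in M and 11488, 18053 and 56466.1 in F livers (-0.51 ± 0.12).

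**Figure D3:**
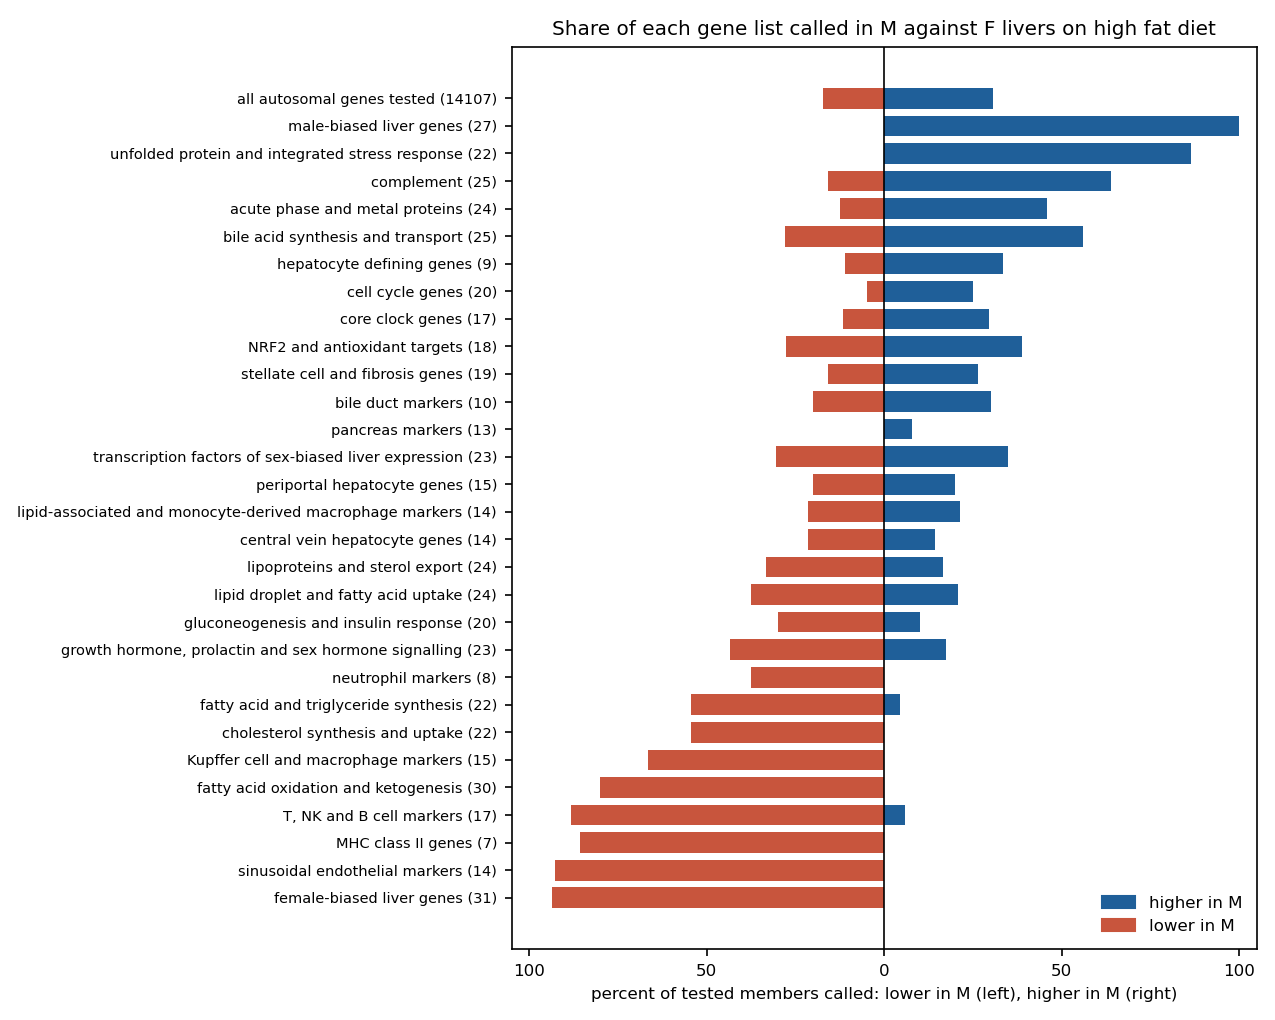
Percent of the tested members of each gene list with at least 7 tested members (number in brackets) called lower in M (red, to the left) or higher in M (blue, to the right), with all autosomal genes in the top row at 17.4% lower and 30.6% higher. Male-biased genes reach 100% to the right, unfolded protein and complement genes lean right, and fatty acid oxidation, endothelial and lymphocyte genes lean left.

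Markers of some other liver cells were mostly lower in M, beside 17.4% lower and 30.6% higher over all genes. Of 15 Kupffer cell markers, 10 were lower in M and none higher, and their summed signal ran over 59.4, 130 and 270 in M and 62.5, 168 and 305 in F livers. Clec4f had 10.9, 21.2 and 38.5 in M and 13.4, 29.3 and 54.6 in F livers (-0.47 ± 0.09). Of 17 T, NK and B cell markers, 15 were lower and 1 higher, with sums of 2.28, 5.11 and 34.7 in M and 2.29, 6.27 and 20.1 in F livers. MHC class II genes were lower in 6 of 7, and their sums ran over 13.3, 53.3 and 136 in M and 26.2, 71.5 and 216 in F livers. Sinusoidal endothelial markers were lower in 13 of 14 with small differences (median -0.24), and their sums were 95.8, 146 and 181 in M and 109, 169 and 211 in F livers. The ranges of all these sums overlapped broadly, and their part in the differences of other genes was not tested.

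Neutrophil markers were lower in 3 of 8, and lipid-associated macrophage markers were higher in 3 of 14 and lower in 3. Stellate cell and fibrosis genes were higher in 5 of 19 and lower in 3, which turned to 3 and 5 under median-of-ratios factors and 4 and 4 under quantile normalization, with the basement membrane collagen Col4a2 at 0.60 ± 0.09. Bile duct markers, with 3 of 10 higher and 2 lower, matched the 30.6% and 17.4% of all genes, and included Sox9 at 0.90 ± 0.11. Of 13 pancreas markers, 1 was called: Cela1, with 0.787, 5.90 and 64.1 in M and 0.215, 1.07 and 20.6 in F livers (2.06 ± 0.22). Erythroid genes (5 tested) and skeletal muscle genes (3 tested) had no call, and both adipose tissue genes tested were higher in M, with list sums of 0.290, 1.98 and 26.1 in M and 0.338, 1.55 and 3.93 in F livers.

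The difference between the sexes was then set against that in chow livers, which are other mice, in a fit of all 192 mice with an interaction term. Of the genes of at least 2-fold difference on high fat diet, 93.8% were called the same way on chow. The sex differences themselves differed between diets in 1171 of 14107 genes (8.30%), with 201 more positive on high fat diet (1.42%) and 970 more negative (6.88%). That imbalance came with the deposited scaling: 82.8% of these calls were more negative there, 49.5% under median-of-ratios factors (296 more positive and 290 more negative) and 56.9% under quantile normalization (253 and 334). The deposited median of this difference over all genes was -0.051. Among the genes of at least 2-fold difference on high fat diet, 69 had a called difference between diets, of which 44 were larger on high fat diet and 25 smaller. These genes were chosen by their size on high fat diet, which favours larger differences there. The split is therefore no result about the diets. In chow livers 1 F mouse had the low Xist signal of an M mouse, and without it 195 genes were more positive and 932 more negative.

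**Figure D4:**
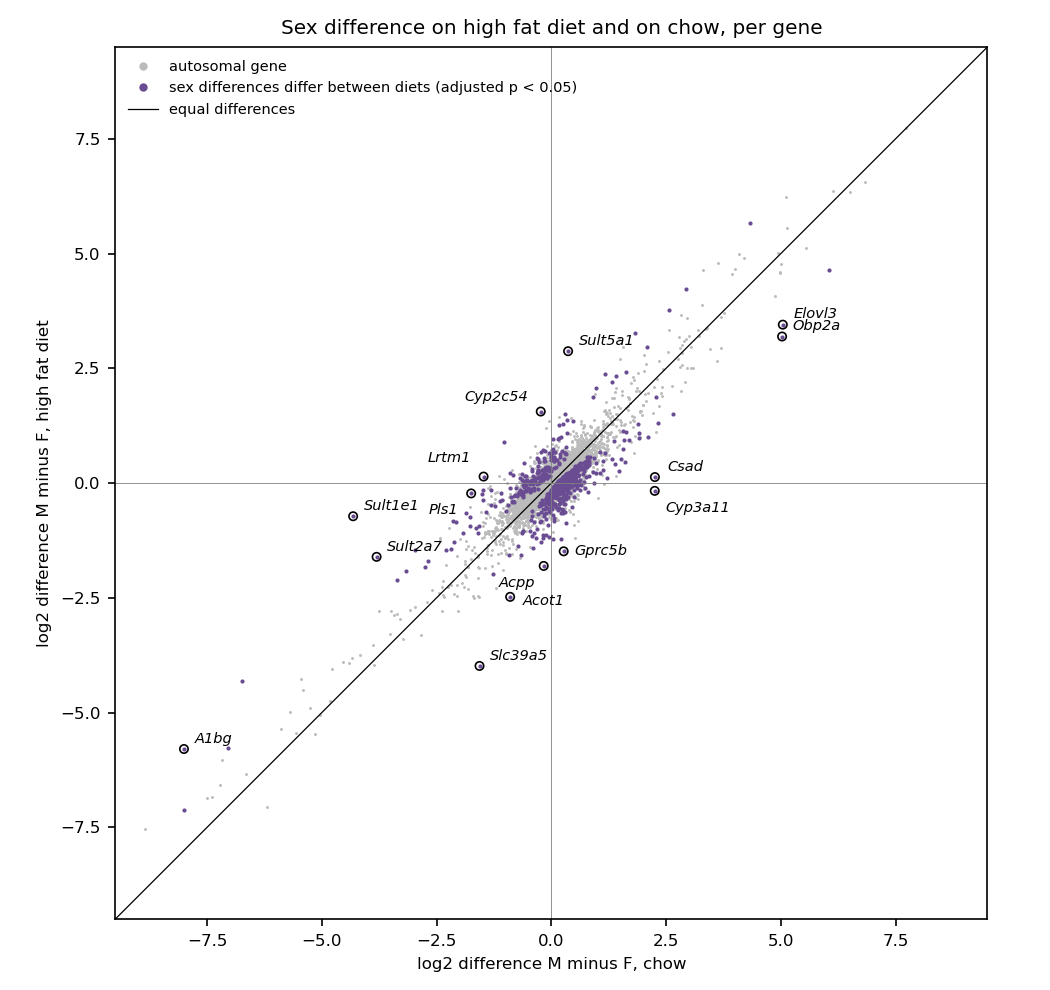
Log2 difference M minus F on high fat diet (vertical) against that on chow (horizontal) for every autosomal gene tested (grey), with genes whose difference differed between diets in purple, 15 named ones circled and a line of equal differences. Most genes of large difference lie along the line, while Cyp3a11 and Csad lie near 0 on the high fat axis at about 2.25 on chow and Sult1e1 lies near -0.72 at -4.32 on chow.

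Several female-biased genes had a weaker sex difference on high fat diet. Sult1e1, the oestrogen sulfotransferase, stood at 0.0196, 0.862 and 26.3 in M and 0.0270, 1.77 and 39.1 in F livers on high fat diet, and at 0, 0.0520 and 1.45 in M and 0.0921, 2.70 and 30.4 in F livers on chow. On high fat diet the M and F ranges nearly coincided. The difference was -0.72 ± 0.43 on high fat diet (adjusted p = 0.16) and -4.32 ± 0.37 on chow, and these differed by 3.59 ± 0.53 (adjusted p = 2.52e-07). Between diets Sult1e1 was 2.81 ± 0.38 higher in M livers on high fat diet.

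Sult2a7 and A1bg had a weaker sex difference with lower F livers. Sult2a7 stood at 0.0132, 0.275 and 3.18 in M and 0, 1.12 and 21.6 in F livers on high fat diet, and at 0, 0.297 and 2.48 in M and 0.0172, 15.6 and 47.0 in F livers on chow. Its F livers were lower on high fat diet than on chow (-2.52 ± 0.41), and the sex difference of -1.61 ± 0.36 on high fat diet differed by 2.22 ± 0.58 (adjusted p = 0.00778) from -3.81 ± 0.41 on chow. A1bg, with 0.157, 0.668 and 9.20 in M and 3.69, 296 and 1456 in F livers on chow, was also lower in F livers on high fat diet (-2.20 ± 0.34), and its sex differences differed by 2.21 ± 0.49. Of 31 female-biased genes, 7 had a sex difference that was more positive on high fat diet, including Cyp3a41a (-7.12 on high fat diet and -8.00 on chow) and Cyp3a44 (-5.77 and -7.05), and none one that was more negative; each rescaling gave 6 and 0. Among sulfotransferases, 5 of 16 were more positive and none more negative, beside 1.42% and 6.88% over all genes.

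Sult5a1 and Cyp2c54 were called higher in M on high fat diet and not on chow. Sult5a1 stood at 0.0377, 3.15 and 24.2 in M and 0, 0.219 and 13.9 in F livers on high fat diet, against 0.0200, 6.31 and 30.4 in M and 0.0337, 5.25 and 14.5 in F livers on chow. The F livers were lower on high fat diet (-3.39 ± 0.36), and the sex differences differed by 2.50 ± 0.51 (adjusted p = 0.000473). Cyp2c54 had 10.9, 146 and 243 in M and 1.96, 55.5 and 351 in F livers on high fat diet, against 32.7, 120.2 and 299.8 in M and 56.9, 146 and 298 in F livers on chow, and differed by 1.8 ± 0.28. Lrtm1 (1.62 ± 0.45) and the actin-bundling gene Pls1 (1.52 ± 0.32) were more positive as well, but were not called on high fat diet and were lower in M on chow. Lrtm1 was at 0.14 on high fat diet and -1.48 on chow, and Pls1 at -0.23 and -1.75. Pls1 was 2.16 ± 0.23 higher in M livers on high fat diet than in M livers on chow.

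On the other side, 2 genes lost a male bias. Cyp3a11 stood at 98.5, 505 and 1425 in M and 54.4, 575 and 1128 in F livers on high fat diet, and at 399.7, 977 and 1867 in M and 9.55, 219.7 and 1099 in F livers on chow. Its sex difference was -0.17 ± 0.16 on high fat diet and 2.25 ± 0.20 on chow, which differed by -2.43 ± 0.28 (adjusted p = 2.69e-11). Cyp3a11 was lower in M livers (-0.99 ± 0.20) and higher in F livers (1.43 ± 0.20) on high fat diet than on chow. Csad, which makes taurine for bile acid conjugation, had 1.95, 7.27 and 29.0 in M and 2.99, 6.25 and 62.7 in F livers on high fat diet, and 6.57, 32.2 and 156 in M and 1.88, 6.70 and 22.1 in F livers on chow. M livers were lower on high fat diet than on chow (-2.03 ± 0.19), F livers were at 0.091 ± 0.19, and the sex differences differed by -2.12 ± 0.27 (adjusted p = 1.23e-09).

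Other genes gained or kept a sex difference. Slc39a5 had 0, 0.0581 and 1.74 in M and 0.217, 2.42 and 14.4 in F livers on high fat diet, and 0, 0.0502 and 0.411 in M and 0.0118, 0.223 and 2.76 in F livers on chow. Its F livers were 2.78 ± 0.24 higher on high fat diet, and the sex differences differed by -2.42 ± 0.34 (adjusted p = 8.33e-08). Acot1 had 0.777, 3.65 and 20.4 in M and 6.50, 20.1 and 58.9 in F livers on high fat diet, and 0.80, 5.23 and 13.0 in M and 2.28, 9.17 and 32.5 in F livers on chow, and differed by -1.58 ± 0.26. The sex difference of Gprc5b was -1.49 on high fat diet and 0.27 on chow, and differed by -1.76 ± 0.39. That of Acpp, a phosphatase gene, was -1.81 and -0.17, and differed by -1.64 ± 0.50. Elovl3, an elongase of very long chain fatty acids and a male-biased gene, had 1.78, 21.9 and 89.2 in M and 0.623, 1.93 and 7.10 in F livers on high fat diet, and 8.47, 47.5 and 152 in M and 0.290, 1.45 and 3.47 in F livers on chow. It stayed higher in M on both diets, by 3.45 ± 0.21 on high fat diet and 5.04 ± 0.19 on chow, a difference of -1.60 ± 0.27 (adjusted p = 8.96e-06), and the pheromone-carrier-like Obp2a differed by -1.84 ± 0.54.

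**Figure D5:**
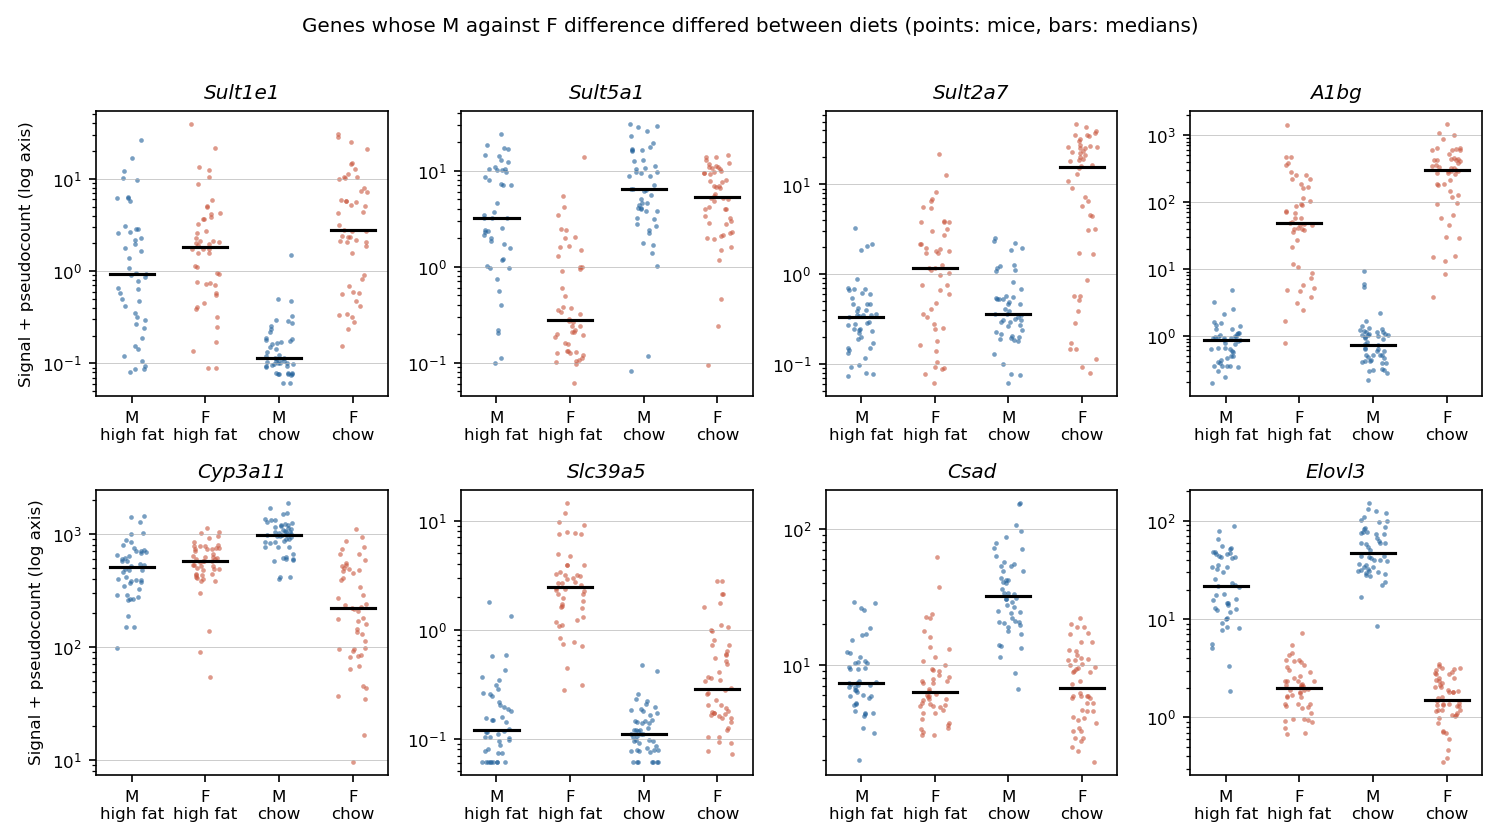
Signal per mouse plus the pseudocount (log axis) of 8 genes in M and F livers on high fat diet and M and F livers on chow, with bars at the medians. Sult1e1 is up in high fat M mice (median 0.862, against 0.052 on chow), Sult2a7, A1bg and Sult5a1 are down in high fat F mice, and Cyp3a11 medians of 505 and 575 on high fat diet sit between the chow medians of 977 and 219.7.

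Counted over pathways, fatty acid oxidation genes had the most members that depended on the diet. In 16 of 30 the sex difference was more negative on high fat diet and in none more positive, with 8 and 1 under median-of-ratios factors and 13 and 0 under quantile normalization. Over all genes, 6.88% were more negative and 1.42% more positive with the deposited scaling. Crat was at -1.42 on high fat diet and -0.41 on chow, and Fgf21, a fasting hormone of the liver, at -1.14 and -0.19. Lipid droplet and uptake genes were more negative in 10 of 24 and more positive in 1, or 6 and 7 more negative after the rescalings, with Fabp5 at -1.23 on high fat diet and 0.20 on chow and Mogat1 at -1.14 and -0.12. Pparg, the receptor that drives many of them, was at -1.10 and -0.37. These examples were taken from the lists after their values were seen. The 1 more positive gene was Cd36, at -1.10 and -1.91. Growth hormone signalling genes (23 tested) and bile acid genes (25 tested) had no member with a called difference between diets. Over all genes the share was 8.30%, so with so few genes this is no result about these lists.

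Of 14107 genes, 39 were called in opposite directions on the 2 diets with a called difference between them, 29 of them lower in M on high fat diet and higher on chow. Most of these differences were small, as for Plin2, the coat protein of lipid droplets (-0.24 on high fat diet and 0.24 on chow) and Fitm2 (-0.33 and 0.22). Retsat, a retinol saturase, stood at -0.51 and 0.46. The prostaglandin synthase gene Ptgds was the exception at 0.89 and -1.04. The 39 genes were counted with the deposited scaling only. With that scaling 82.8% of all calls between diets were more negative, against 49.5% under median-of-ratios factors. The lean of 29 genes may therefore depend on the scaling. Another 15 genes with a called difference between diets were at least 2-fold different on chow and not called on high fat diet. They included Sult1e1, Cyp3a11, Csad, Lrtm1 and Pls1, which are given above. Also among them were the small heat shock protein gene Hspb1 (0.45 on high fat diet and 1.61 on chow) and the acid glycoprotein gene Orm3 (-0.24 and -1.51). The examples not given above were chosen after their values were seen.

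The sexes also differed in how much mice of one group varied. The spread, taken as the distance of each log2 value from its group median, differed in 215 of 14107 genes (1.52%), with 178 wider in M livers (1.26%) and 37 narrower (0.262%). Some female-biased genes were low in most M livers and high in a few. Cyp2a4, a steroid hydroxylase, stood at 0.565, 14.0 and 485 in M and 125, 400.5 and 792 in F livers, with a log2 SD of 2.62 in M and 0.57 in F. Cyp2b9 had 0.30, 5.66 and 176 in M and 39.6, 139.8 and 257 in F livers, and the amine sulfotransferase-like Sult3a1 had 0.370, 16.2 and 349 in M and 1.19, 118 and 257 in F livers. M livers thus covered the range from nearly off to the full F level. Of the 31 female-biased genes, 14 were wider in M and 4 narrower. Moxd1, Obp2a, the potassium channel gene Kcnk1 and Nuggc were wider in M as well, but as genes that were near the floor in all F livers. Kcnk1 had 0.0159, 0.846 and 10.3 in M and 0, 0.0439 and 0.147 in F livers.

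Narrower spread in M was found for Slco1a1, a bile acid and steroid uptake carrier, which had 16.6, 185 and 289 in M and 0.495, 19.8 and 211 in F livers, with log2 SDs of 0.83 in M and 2.40 in F. Gsn, the actin-severing gelsolin, had 1.36, 2.40 and 26.7 in M and 0.943, 3.56 and 314 in F livers, so that a few F livers were far above the rest. A1bg and the sulfotransferases Sult2a2, Sult2a4 and Sult2a6 were also narrower in M, as were Fam19a2 and Lrrc24. The M medians of Sult2a4 and Sult2a6 were 0, and for genes so low in one sex the spread depends on the pseudocount.

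The comparison was also fitted within each generation label. In G11L1 mice 4486 genes were called and in G11L2 mice 4431. All genes of at least 2-fold difference had the same sign in both, and 92.1% of them were called in both. No gene had a called difference between the 2 labels (limma, smallest adjusted p = 0.623, with 628 genes at an unadjusted p under 0.05), which does not show that the labels act alike. What L1 and L2 stand for was not given.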

How the data were processed

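Liver mRNA libraries (TruSeq, single-end reads of 100 bp) were sequenced with 2 technical repeats per mouse, randomly placed on lanes, per the labels' protocols. The table the authors deposited has 21454 genes and 1 column for each of 192 mice. The authors scaled this signal to each mouse's upper quartile before it was deposited, per the title of the table. The mouse, a separate animal, was the replicate. The submitters' processing notes named CASAVA 1.8.0, GRCm38 and mm10. Which aligner, counter and annotation were used is not given in the sources used here. GENCODE M21 on GRCm38 named 21022 of the IDs, and reads shared by gene copies may have been split or dropped by the authors' counting. Depth was estimated from the size of 1 read among low values. Whole reads could not be recovered, so no count test was run and precision rests on the number of mice.

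Genes above 0 in at least 23 of the 94 high fat mice and with a mean of at least the pseudocount were tested (14728, of which 14107 autosomal genes are reported). As pseudocount, 0.0610 was taken, which is 1/100 of 6.10, the upper quartile of the median mouse. limma 3.58.1 in R 4.3.3 fitted sex plus the generation label with a trended variance, and p-values were adjusted by Benjamini-Hochberg over all genes tested. The interaction with diet was fitted in all 192 mice in 4 groups, and the spread as the absolute deviation from the group median of the log2 values. The fits were also run on simulated data of 14728 genes with known changes put in, and the share recovered is not given here. Those values were drawn from a normal distribution for each gene, which does not cover skewed genes or values at 0. Shared words are the share of a gene's 100-base transcript words that also occur in other genes of the annotation.

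The members, lists and tests were chosen with earlier results of these data known. The naming rule took the 12 largest called differences in each direction among genes that had a symbol and averaged 10 pseudocounts in the higher sex, without predicted genes and pseudogenes, the 8 largest in each direction for the interaction and for the spread, up to 4 members of a list or family with the smallest p, 3 marker genes, and up to 4 protein-coding genes in each direction outside the lists. Any other gene named was chosen after its values were seen. Alternatives were other pseudocounts, filters, scalings, weights, covariates and subsets of mice. Values near the pseudocount rest on a few reads. Some genes so chosen are counted but not named in this text.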

Additional observations from a re-analysis of the deposited data

Results flagged for a closer look

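A difference between M and F livers that itself differed between the high fat diet and chow, by the interaction test of limma, marked 15 genes reported here, and no explanation was tested for them. Values are the M minus F difference on high fat diet minus that on chow, on the log2 scale. More positive on high fat diet were the sulfotransferases Sult1e1 (3.59), Sult5a1 (2.50) and Sult2a7 (2.22), A1bg (2.21), Cyp2c54 (1.8), Lrtm1 (1.62) and Pls1 (1.52). More negative on high fat diet were Cyp3a11 (-2.43), the zinc importer Slc39a5 (-2.42), Csad (-2.12), Obp2a (-1.84), Gprc5b (-1.76), Acpp (-1.64), Elovl3 (-1.60) and Acot1 (-1.58). In Gprc5b the F livers stood at 0.0725, 1.16 and 9.13 (lowest, median and highest mouse) on high fat diet and at 0.0179, 0.0714 and 0.324 on chow. All 15 kept their sign and an adjusted p under 0.05 without the chow F mouse of low Xist, without mice rich in pancreas transcripts, after both rescalings and under the other settings tried for this comparison.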

How the results depend on the processing

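Of the counts of genes under the alternatives, 100 stayed within 1.5 times the reported count and 15 did not. A pseudocount 10 times larger left 117 genes at least 2-fold higher and 111 lower in M, and one 10 times smaller gave 288 lower; the spread then had 84 and 22 genes narrower in M. In mice of 1 label, G11L1 alone gave 1459 genes lower in M and G11L2 alone 2797 higher and 1634 lower, with fewer samples tested. Requiring a fold of 1.5 left 526 higher and 477 lower, and a fold of 2 left 229 and 190. The interaction had 290 more negative genes under median-of-ratios factors and 334 under quantile normalization. Separate ranges were found in 11 genes without mice M365 and F408, which was chosen after seeing the data; the other counts without these mice were 4454 higher and 2478 lower for all calls. Named genes kept their direction and call in 893 cases and lost the call in 6, which were calls of spread under the smaller pseudocount, where Nuggc was at 0.95, Sult2a6 at -0.44, Sult2a4 at -0.86, Fam19a2 at -1.0, Lrrc24 at -1.25 and Sult2a2 at -0.79; the cause was not tested. No high fat mouse had Xist against its label, so that alternative gave no value for the high fat comparison. The mouse numbers did not pair M and F mice (median correlation 0.003 over 44 shared numbers, 4 over 0.1, and 2 M mice most like their own number); with the number as a replicate block 6611 genes were called (4223 higher and 2388 lower), 6626 in the same mice without the block. With values near the pseudocount, a difference is limited by the depth of single reads.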
